A study of Solanum lycopersicum with 6 samples.

Results

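The transcripts of 5 tomato genes whose proteins act on the cell wall of softening fruit were followed in the exocarp, the outer layer of the fruit, of nor-like1, a mutant of a NAC family transcription factor named SlNOR-like1, and of the wild type (WT). They are the polygalacturonase PG2a (Solyc10g080210.2), the pectate lyase PL (Solyc03g111690.4), the beta-galactosidase TBG4 (Solyc12g008840.2), the expansin EXP1 (Solyc06g051800.3) and the endoglucanase CEL2 (Solyc09g010210.3). They were picked by gene identifier for their part in softening and not by a rule on their values, though earlier results of these data were known. Among the 21708 genes listed in any library, 5 of 5 were found. All 5 passed the filter on low counts, which left 16380 genes. The study made 3 RNA-seq libraries of nor-like1 exocarp and 3 of WT exocarp, all from fruit at the stage labelled MG, with no other treatment named in the labels. The header of the authors' comparison calls the mutant nor-like1-1, without saying what the final number stands for. The labels do not name the plants behind each library, and the spread that p-values are measured against may therefore be technical.

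Fruit softens as its cell walls are taken apart by proteins that act on different polymers. Polygalacturonases and pectate lyases cut the backbone of homogalacturonan, the pectin that glues neighbouring cells, after pectinesterases have removed its methyl groups. Beta-galactosidases such as TBG4 trim galactan side chains from pectin, expansins loosen the contacts between cellulose and xyloglucan without cutting them, and endoglucanases such as CEL2 cut beta-1,4-linked glucans. In tomato, PG2a and EXP1 are known as transcripts that accumulate when fruit ripens, and fruit with reduced PL stays firmer.

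Depth ranged between 8503210 and 11023036 expected counts in nor-like1 and between 11459875 and 17578533 in WT. SlNOR-like1 itself, which checks the labels, stood at 24.5, 16.9 and 18.1 CPM (counts scaled to library size) in nor-like1 replicates 1 to 3, against 129.8, 114.3 and 120.8 CPM in WT replicates 1 to 3, so every library matched its label. All 5 cuticle genes taken as exocarp markers were listed in every library, and their summed level was 668 to 759 CPM in nor-like1 and 495 to 601 CPM in WT. The largest part of this sum was CER6, at 490.4, 456.1 and 545.3 CPM in nor-like1 and 256.8, 274.1 and 294.7 CPM in WT. The 5 markers moved in both directions. Across all genes tested with edgeR's quasi-likelihood test at a Benjamini-Hochberg adjusted p below 0.05, 3585 genes were called, of which 1713 were higher in nor-like1 and 1872 lower. That count depended on single libraries, and was 1406 without nor-like1 replicate 2, 1651 without nor-like1 replicate 3, 1502 without WT replicate 1 and 1139 without WT replicate 2.

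Of the 5 genes, PL rose in nor-like1 and the other 4 did not pass the test. PL was 3.19-fold higher, PG2a had a log2 fold change of -4.30 that rested on a single WT library, and EXP1, TBG4 and CEL2 had log2 fold changes of 0.98, 0.37 and 0.38. This 1 call among 5 genes stood beside a background of 21.9% of all 16380 genes called in either direction, 10.5% higher and 11.4% lower. The median log2 fold change was 0.38 over the 5 genes and -0.01 over all genes tested. The libraries of the 2 genotypes did not overlap for PL and overlapped for PG2a, TBG4, EXP1 and CEL2, where 42.9% of all genes tested did not overlap, 20.5% with nor-like1 higher and 22.4% with it lower. RNA came from bulk tissue, in which fewer cells of a type and less RNA per cell cannot be told apart.

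**Figure D1:**
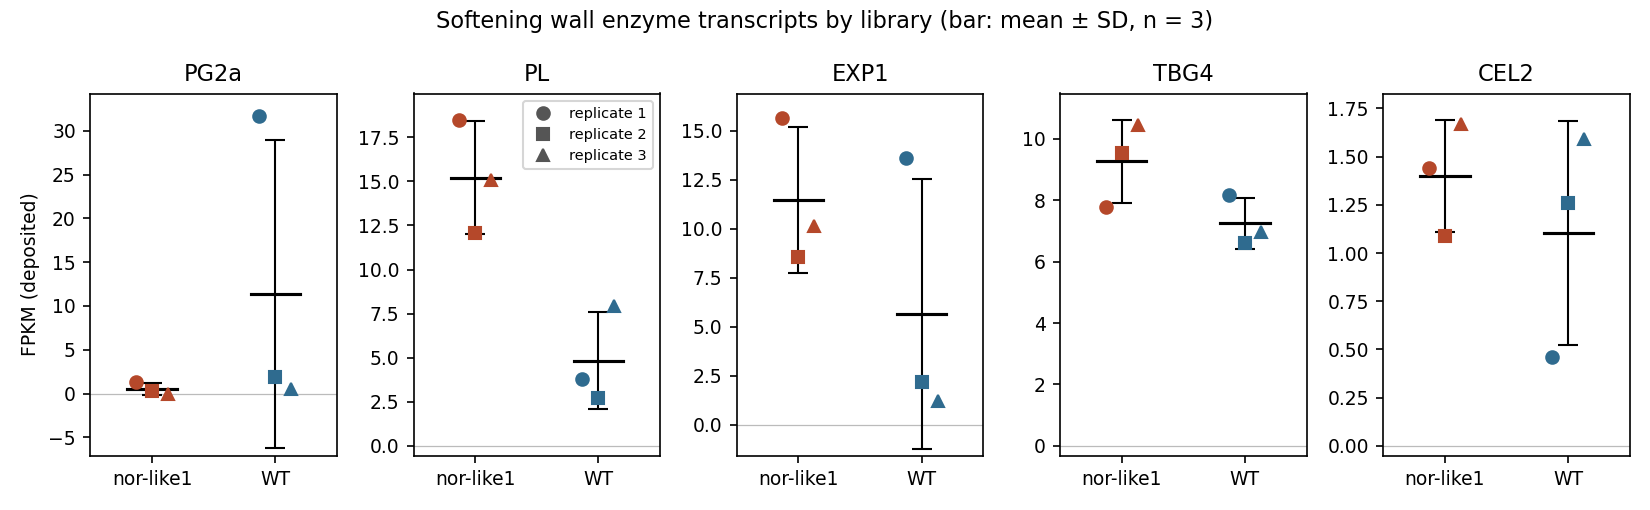
FPKM of the 5 genes in each library (points, marker shape by replicate number), with the mean (line) and SD (whiskers) over 3 libraries; nor-like1 is on the left and WT on the right of each panel, and each panel has its own linear axis. PL lies between 12.06 and 18.5 in nor-like1 and between 2.71 and 7.94 in WT, while a single WT library at 31.71 sets the WT mean of PG2a.

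PG2a cuts the homogalacturonan backbone by hydrolysis. Its FPKM (fragments scaled to transcript length and library size) was 1.28 and 0.35 in nor-like1 replicates 1 and 2, with no value listed in nor-like1 replicate 3, against 31.71, 1.86 and 0.54 in WT replicates 1 to 3. WT replicate 1 stood far above the other 5 libraries, and WT replicate 3 lay inside the nor-like1 range. The counts behind these values were 23, 6 and 0 in nor-like1, where a floor of 3 counts allowed up to 0.353 CPM in replicate 3, and 900, 34 and 14 in WT. WT replicate 1 thus held 900 of the 948 WT counts. The log2 fold change of nor-like1 over WT was -4.30 (SE 1.78, 95% interval -8.61 to 0.01, n = 3 libraries each), with an adjusted p of 0.133 by edgeR's quasi-likelihood test, so no difference beyond the spread between libraries was shown. The exact two-sided permutation test over the 6 libraries gave p = 0.2, where 0.1 is the smallest p that 3 libraries against 3 can give. Without WT replicate 1 the log2 fold change was -1.01, with an edgeR adjusted p of 0.593, and without nor-like1 replicate 1 it was -5.84, with an adjusted p of 0.202. In the authors' deposited table PG2a has a log2 fold change of -0.64 and an adjusted p of 0.323. The DESeq2 fit made here gave -4.36 with an adjusted p of 0.0963, and what sets the authors' smaller value apart was not tested.

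PL cuts the same backbone by elimination. Its FPKM was 18.5, 12.06 and 15.08 in nor-like1 replicates 1 to 3, against 3.82, 2.71 and 7.94 in WT replicates 1 to 3. All 3 nor-like1 libraries lay above all 3 WT libraries, and WT replicate 3 was the nearest of the WT libraries to them. PL had 368, 227 and 231 counts in nor-like1 and 120, 55 and 230 counts in WT, so that the counts of nor-like1 replicate 3 and WT replicate 3 were alike from libraries of very different size. For PL the log2 fold change was 1.67 (SE 0.393, 95% interval 0.72 to 2.62, n = 3 libraries each), with an edgeR adjusted p of 0.0308. The exact two-sided permutation test gave p = 0.1, the smallest possible.

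The call of PL was lost when any of 5 libraries was left out. The edgeR adjusted p was 0.0638 without nor-like1 replicate 1, 0.0702 without nor-like1 replicate 2, 0.0821 without nor-like1 replicate 3, 0.089 without WT replicate 1 and 0.0691 without WT replicate 2. In that order, these fits called 11.1%, 4.51%, 5.14%, 4.79% and 3.59% of all genes higher, against 10.5% with all 6 libraries. Without WT replicate 3, the WT library with the most PL, the edgeR adjusted p of PL was 0.00287, in a fit that called 14.1% of genes higher. The log2 fold change stayed between 1.41 and 2.20 in these 6 fits. PL was also called by DESeq2, at a log2 fold change of 1.69 and an adjusted p of 9.9e-05, where 12.3% of genes were called higher, and the authors' deposited table lists it as up, at 1.48 with an adjusted p of 0.000146.

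TBG4 removes galactose from pectic galactan. Its FPKM was 7.78, 9.54 and 10.46 in nor-like1 replicates 1 to 3, against 8.17, 6.61 and 6.95 in WT replicates 1 to 3. The libraries lay close together, and WT replicate 1 stood above nor-like1 replicate 1. For TBG4 the log2 fold change was 0.37 (SE 0.154, 95% interval 0.01 to 0.73, n = 3 libraries each), with an unadjusted p of 0.046 and an adjusted p of 0.125 by edgeR's quasi-likelihood test. TBG4 therefore missed the threshold, and the interval leaves room for anything between nearly no difference and an increase of 0.73 on the log2 scale. The authors' deposited table gives 0.36 with an adjusted p of 0.225.

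EXP1 codes for the expansin of ripening tomato fruit. Its FPKM was 15.64, 8.54 and 10.15 in nor-like1 replicates 1 to 3, against 13.59, 2.2 and 1.19 in WT replicates 1 to 3. WT replicate 1 lay among the nor-like1 libraries, and the remaining WT libraries lay far below all of them. The log2 fold change was 0.98 (SE 0.863, 95% interval -1.11 to 3.07, n = 3 libraries each), with an edgeR adjusted p of 0.446 and an exact two-sided permutation p of 0.3. Without WT replicate 1 the log2 fold change was 2.79, with an edgeR adjusted p of 0.0152. Without replicate 1 of both genotypes, a choice made after seeing the data, it was 2.52, with an edgeR adjusted p of 0.00932. These fits called 4.79% and 7.46% of all genes higher. Whether EXP1 differed between the genotypes thus turned on WT replicate 1. The authors' deposited table gives 0.50 with an adjusted p of 0.613.

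CEL2 had few counts in every library, at 28, 20 and 25 in nor-like1 and 14, 25 and 45 in WT. Its FPKM was 1.44, 1.09 and 1.67 in nor-like1 replicates 1 to 3, against 0.46, 1.26 and 1.59 in WT replicates 1 to 3. WT replicate 1 was the lowest library, and the remaining WT libraries fell inside the nor-like1 range. For CEL2 the log2 fold change was 0.38 (SE 0.459, 95% interval -0.70 to 1.46, n = 3 libraries each), with an edgeR adjusted p of 0.58. Without WT replicate 1 it was -0.01, so that the direction also rested on that library.

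**Figure D2:**
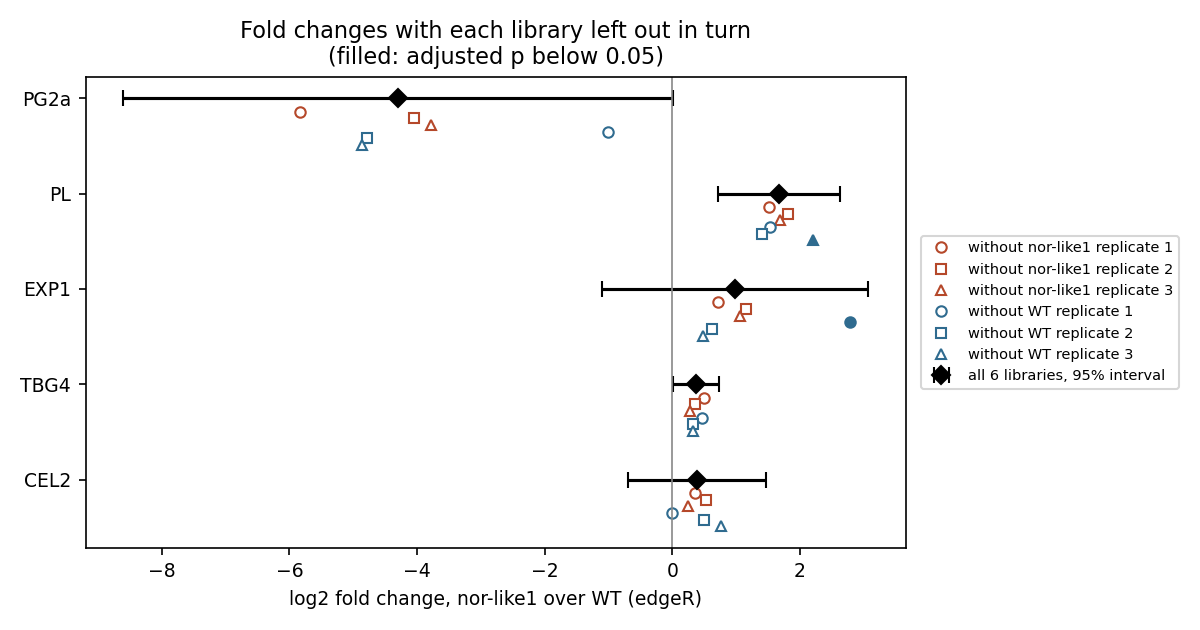
Log2 fold change of nor-like1 over WT for each gene, with all 6 libraries (diamond, with its 95% interval) and with each library left out in turn (small symbols, red for a nor-like1 library and blue for a WT library; filled where the adjusted p is below 0.05). Leaving out WT replicate 1 moves PG2a to -1.01 and EXP1 to 2.79, whereas PL stays between 1.41 and 2.20.

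On the per-length FPKM scale, the order of the mean levels was not the same in the 2 genotypes. In nor-like1, PL came first at 15.2 ± 3.22 FPKM, then EXP1 at 11.4 ± 3.72, TBG4 at 9.26 ± 1.36, CEL2 at 1.4 ± 0.292 and PG2a at 0.543 ± 0.662 (SD, n = 3 libraries). In WT, PG2a came first at 11.4 ± 17.6 FPKM, then TBG4 at 7.24 ± 0.82, EXP1 at 5.66 ± 6.89, PL at 4.82 ± 2.76 and CEL2 at 1.1 ± 0.581 (SD, n = 3 libraries). Between neighbours in these orders, the library ranges were apart for TBG4 and CEL2 in nor-like1 and for PL and CEL2 in WT, and overlapped for the others. PL was the highest of the 5 in every nor-like1 library, and in WT replicate 3. PG2a was the highest in WT replicate 1, where it made 54.9% of the summed FPKM of the 5 genes, and TBG4 in WT replicate 2. The summed FPKM of the 5 genes was 44.6, 31.6 and 37.4 in nor-like1 replicates 1 to 3 and 57.8, 14.6 and 18.2 in WT replicates 1 to 3.

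The 5 genes differed in how far the libraries of a genotype lay apart. The SD of log2(CPM + 1) over the WT libraries was 2.54 for PG2a, and 4 of the 16380 genes tested had a larger one. It was 1.56 for EXP1, with 67 genes above it, 0.689 for PL, 0.55 for CEL2 and 0.167 for TBG4, where the median gene had 0.162. In nor-like1 the same SD was 0.82 for PG2a, with 290 genes above it, 0.402 for EXP1, 0.291 for PL, 0.217 for CEL2 and 0.213 for TBG4, where the median gene had 0.172. TBG4 thus varied about as much as the median gene in WT, while PG2a and EXP1 were among the most variable genes of that genotype.

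WT replicate 1, on which the PG2a and EXP1 values turned, also held more of some ripening transcripts and less of another. PG2a in WT replicate 1 was 17.4-fold above the higher of the remaining WT libraries, and EXP1 was 6.3-fold above it. Of 13603 tested genes that averaged 5 CPM or more, 11 (0.0809%) were at least 4-fold above both other WT libraries there, and PG2a and EXP1 were among them. The others included E8, a fruit gene induced by ethylene, the lipoxygenase gene LOXC, which acts in flavour volatile synthesis, and the alcohol acyltransferase gene AAT, named after their values were seen. E8 stood at 293.9, 27.1 and 13.1 CPM in nor-like1 replicates 1 to 3, against 1195, 148.2 and 119.4 CPM in WT replicates 1 to 3. LOXC stood at 28.7, 6.52 and 2.26 CPM in nor-like1 and at 128.7, 10.5 and 5.83 CPM in WT. In both genotypes, replicate 1 was the highest library for E8, LOXC, PG2a and EXP1, where EXP1 in nor-like1 was at 1.5-fold the highest other library. The same held for PSY1, at 4.49-fold the highest other library in nor-like1 and 2.07-fold in WT. NOR was at 3.74-fold in nor-like1 and 1.31-fold in WT. Replicate 1 was also highest in both genotypes for NR (ETR3), E4, AP2a, FUL1, SGR1 and CNR, in some by small margins. ACO1, FUL2, TAGL1, ACS2 and ACS4 did not follow this order. In nor-like1 replicate 1, ACS4 was at 0.281 of the highest other nor-like1 library. In WT replicate 1, ACO1 was at 0.164 of the highest other WT library, FUL2 at 0.842, TAGL1 at 0.929 and ACS2 at 0.997. The part of these differences between libraries in the results for PG2a and EXP1 was not tested.

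Set against E8, PG2a overlapped between the genotypes. For every 1000 E8 counts there were 7.13, 21.5 and 0 PG2a counts in nor-like1 replicates 1 to 3, and 43.8, 20.3 and 7.12 in WT replicates 1 to 3, a comparison chosen after seeing the data. The exact 95% interval, for counting error only, was 7.82 to 47.4 in nor-like1 replicate 2, and reached 34.1 in nor-like1 replicate 3. EXP1 did not overlap on this scale, with 74.1, 452 and 1109 counts per 1000 E8 counts in nor-like1 and 16.3, 20.9 and 13.7 in WT. The other genes also had high values on this scale in the nor-like1 libraries with little E8. PL had 114, 814 and 2100 counts per 1000 E8 counts in nor-like1 and 5.84, 32.8 and 117 in WT, and TBG4 had 67.3, 900 and 2045 in nor-like1 and 17.5, 112 and 144 in WT. These ratios depend on the E8 counts, which were 3225, 279 and 110 in nor-like1 and 20556, 1675 and 1965 in WT. E8 itself was not called, at a log2 fold change of -2.13 with an edgeR adjusted p of 0.322, which was -4.58 without nor-like1 replicate 1 and -0.27 without WT replicate 1. Without replicate 1 of both genotypes, E8 was called, at -2.73 with an edgeR adjusted p of 0.00833.

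**Figure D3:**
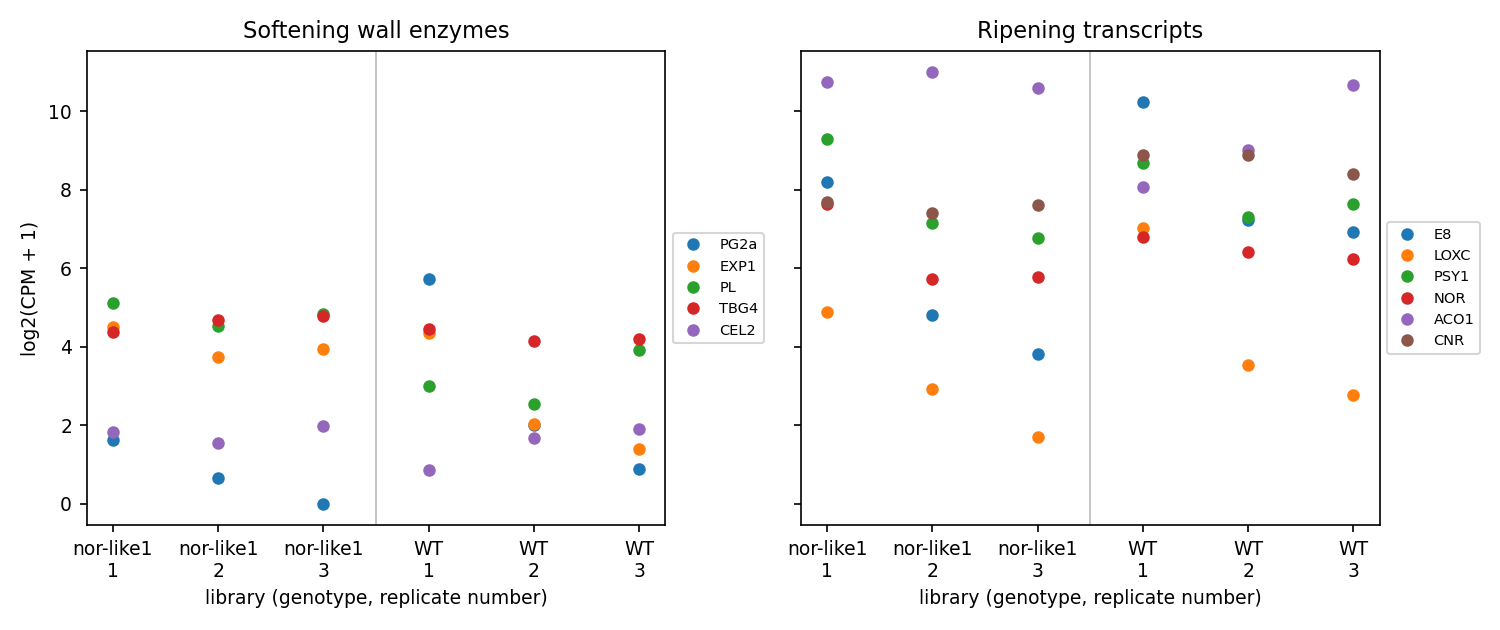
Level of the 5 wall genes (left panel) and of 6 ripening transcripts (right panel) in each library, as log2(CPM + 1), with the nor-like1 libraries left of the grey line and the WT libraries right of it. PG2a, EXP1, E8 and LOXC are highest in replicate 1 within each genotype, while TBG4 and CNR differ little between the libraries of a genotype.

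Of 16 ripening genes, 15 were listed and tested, and RIN was not analysed here. CNR, a transcription factor gene needed for ripening, fell in nor-like1, to 205.4, 168.9 and 192.6 CPM against 472.6, 470.1 and 338.5 CPM in WT, with a log2 fold change of -1.18 (SE 0.164, n = 3 libraries each) and an edgeR adjusted p of 0.00575. The other 14 were not called, so that 6.67% of the list was called, against 21.9% of all genes, and the median log2 fold change was -0.04. The count was 3 without nor-like1 replicate 1 and 2 without WT replicate 3, in fits that called 22.5% and 28.5% of all genes. The NAC gene NOR had a log2 fold change of 0.18 with an edgeR adjusted p of 0.837, and -0.77 with an adjusted p of 0.0305 without nor-like1 replicate 1. The ethylene synthesis gene ACO1 had 1702, 2028 and 1533 CPM in nor-like1 and 267.5, 517.4 and 1634 CPM in WT, with a log2 fold change of 1.12 and an edgeR adjusted p of 0.247. Without WT replicate 3, in which ACO1 and PL were both highest among the WT libraries, ACO1 had 2.16 and an adjusted p of 0.00648. The ethylene synthesis genes ACS2 and ACS4 had log2 fold changes of 0.99 and -0.02, and the ethylene-induced gene E4 had 0.48, which was -0.14 without nor-like1 replicate 1. None of these 3 was called by edgeR, with adjusted p-values of 0.1, 0.982 and 0.489.

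Relatives of the 5 genes moved in both directions. Among 190 other wall enzyme genes of 11 families, found by product name, 107 were tested, of which 22 rose in nor-like1, 17 fell and 68 were not called. This makes 36.4% called, against 21.9% of all genes, with a median log2 fold change of 0.24 against -0.01. The count of 39 was 25 without nor-like1 replicate 2 and 22 without WT replicate 2, in fits that called 8.49% and 6.85% of all genes. With all libraries, 55.6% of pectate lyases and of expansins, 52.6% of pectinesterases, 35.3% of polygalacturonases and 30.8% of beta-galactosidases were called. Near the 21.9% of all genes were endoglucanases (25%), xyloglucan endotransglucosylases (23.1%), mannanases (20%) and arabinofuranosidases and xylosidases (20%). Each family has few genes, so 1 call moves its share. The product patterns also take in proteins that do not cut the wall, among them the non-catalytic polygalacturonase subunit AROGP2 and Xegip, an inhibitor of fungal xyloglucanases.

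**Figure D4:**
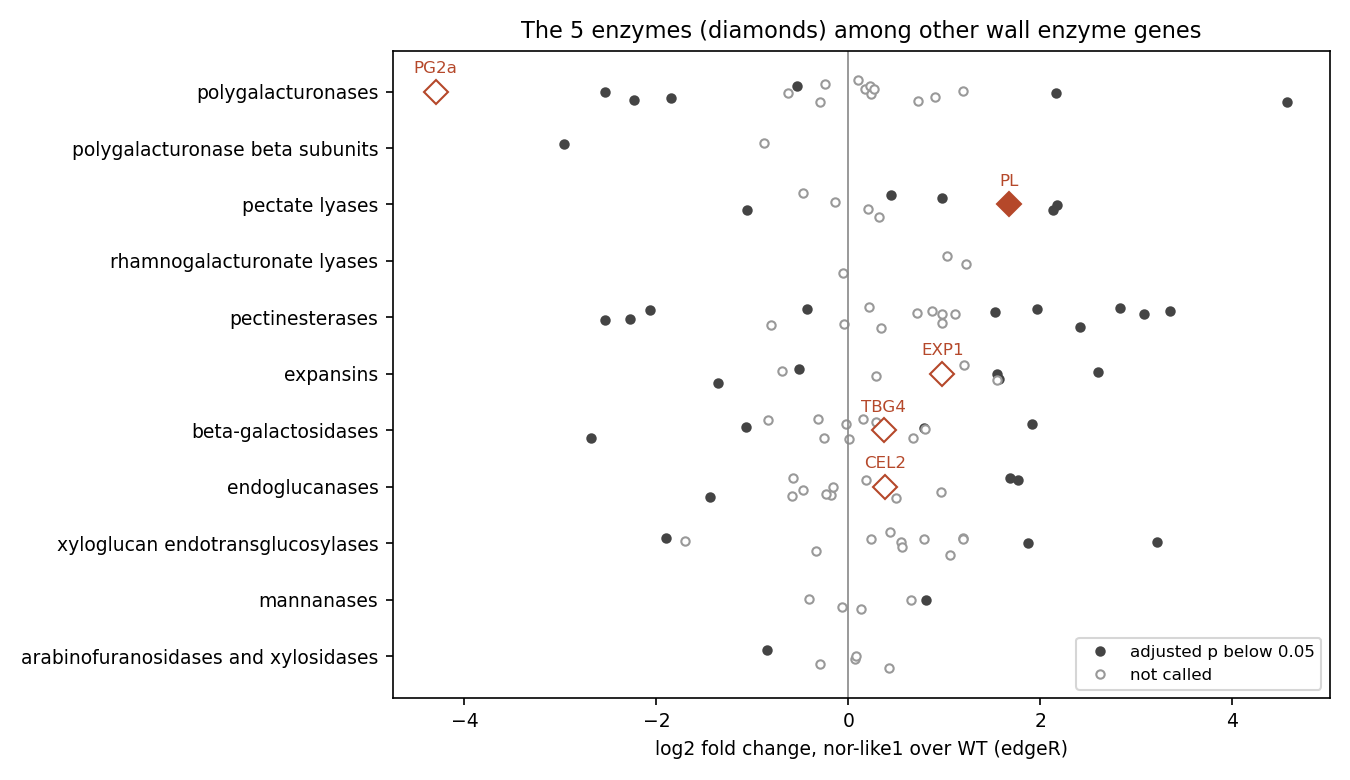
Log2 fold change of nor-like1 over WT for the 5 genes (red diamonds) and for the tested genes of 11 wall enzyme families (circles, 1 row per family; filled where the adjusted p is below 0.05). Most families hold genes on each side of 0; PG2a lies at -4.30 without being called, and PL at 1.67 is called.

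Next to PG2a, 17 other genes of the polygalacturonase list were tested, of which 2 rose and 4 fell. Solyc01g094970.4 rose to 14.5 ± 6.89 CPM in nor-like1, against 0.59 ± 0.449 CPM in WT (SD, n = 3), at 4.57 on the log2 scale with an edgeR adjusted p of 0.00564, and 5.44 without WT replicate 3. Solyc05g049980.3 fell to 11.8 ± 1.82 CPM in nor-like1, against 55.5 ± 10.7 CPM in WT (SD, n = 3), at -2.23 with an edgeR adjusted p of 0.00146. The beta subunit of polygalacturonase is a non-catalytic wall protein that binds the enzyme. AROGP3, listed as a non-catalytic subunit of polygalacturonase, fell to 5.87 ± 2.41 CPM in nor-like1, against 45.5 ± 2.16 CPM in WT (SD, n = 3), at -2.96 with an edgeR adjusted p of 0.00288. AROGP2, also non-catalytic, was placed in the polygalacturonase list by its product name and is 1 of the 4 that fell there. Singled out after its values were seen, AROGP2 had means of 31.9 CPM in nor-like1 and 185.9 CPM in WT, at -2.54 with an edgeR adjusted p of 0.009. The expected counts of AROGP3 and AROGP2 were fractional, such as 34.48 and 166.52 in nor-like1 replicate 1. Reads may thus have been divided between similar genes, and the 2 falls may not be separate. Unlike PG2a, AROGP3 was close to the same level in all 3 WT libraries, at 47.6, 45.6 and 43.3 CPM.

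Beside PL, 9 other pectate lyase genes were tested, of which 4 rose and 1 fell. Solyc02g093580.5 rose to 10.8 ± 2.2 CPM in nor-like1, against 2.49 ± 0.584 CPM in WT (SD, n = 3), at 2.13 with an edgeR adjusted p of 0.00359. Solyc05g014000.5 fell, at -1.06 with an edgeR adjusted p of 0.0351, and this call was lost without nor-like1 replicate 1 (0.0537), nor-like1 replicate 3 (0.101), WT replicate 1 (0.113) or WT replicate 2 (0.0703). None of 3 rhamnogalacturonate lyase genes was called.

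Pectinesterases, which prepare homogalacturonan for PG2a and PL, gave 6 genes that rose and 4 that fell among 19 tested. Solyc11g005770.2 rose at 2.41 with an edgeR adjusted p of 0.00469, and Solyc12g098340.2 fell at -2.53 with an adjusted p of 0.000847. Of 3 more that were chosen after their values were seen, 2 fell and 1 rose. PE1 fell to 1185 ± 160 CPM in nor-like1, against 4990 ± 887 CPM in WT (SD, n = 3), at -2.07 with an edgeR adjusted p of 0.00225. PME2.1 fell to 104.6 ± 17 CPM in nor-like1, against 504 ± 121 CPM in WT (SD, n = 3), at -2.27 with an edgeR adjusted p of 0.00235. PMEU1 rose to 930.1 ± 192 CPM in nor-like1, against 322.9 ± 90.4 CPM in WT (SD, n = 3), at 1.53 with an edgeR adjusted p of 0.00818.

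Among 13 other beta-galactosidase genes tested beside TBG4, 2 rose and 2 fell. TBG6, a beta-galactosidase of growing fruit, rose to 108.8 ± 22.9 CPM in nor-like1, against 29.1 ± 2.82 CPM in WT (SD, n = 3), at 1.91 with an edgeR adjusted p of 0.0023. Solyc11g018500.3 fell at -1.07 with an adjusted p of 0.00887. In FPKM, TBG6 averaged 29.8 in nor-like1 and 8.11 in WT, so that it was above TBG4 in nor-like1 (9.26) and close to it in WT (7.24).

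Of 9 other expansin genes tested beside EXP1, 3 rose and 2 fell. The expansin gene exp18 rose to 24.0 ± 4.92 CPM in nor-like1, against 3.94 ± 0.987 CPM in WT (SD, n = 3), at 2.60 with an edgeR adjusted p of 0.002. EXP5 fell to 77.6 ± 24.2 CPM in nor-like1, against 199.8 ± 18.1 CPM in WT (SD, n = 3), at -1.36 with an edgeR adjusted p of 0.00845. Beside CEL2, 12 other genes of the endoglucanase list were tested, of which 2 rose and 1 fell. One of the 2 that rose is the inhibitor gene Xegip, at 1.77 with an edgeR adjusted p of 0.0136, a call lost without nor-like1 replicate 2 (0.0526), nor-like1 replicate 3 (0.0505) or WT replicate 2 (0.0636). Solyc07g049300.3 rose at 1.68 with an edgeR adjusted p of 0.00235. Of 13 xyloglucan endotransglucosylase genes, which act on the glucan that expansins work on, 2 rose and 1 fell. Solyc09g008320.5 rose at 1.87 with an edgeR adjusted p of 0.000532, and XTH7 fell at -1.90 with an adjusted p of 0.00873. Of 5 mannanase genes, Solyc11g012190.3 rose at 0.81 with an adjusted p of 0.0369, a call lost without nor-like1 replicate 2 (0.0955), nor-like1 replicate 3 (0.11), WT replicate 1 (0.0909) or WT replicate 2 (0.0845). Of 5 arabinofuranosidase and xylosidase genes, Solyc01g104950.5 fell at -0.85 with an adjusted p of 0.0253, a call lost without nor-like1 replicate 2 (0.0909), WT replicate 1 (0.0594) or WT replicate 2 (0.0964).

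Markers of other fruit tissues were summed in each library. Vascular markers summed to 192, 251 and 268 CPM in nor-like1 replicates 1 to 3, against 99.8, 94.6 and 102 CPM in WT replicates 1 to 3, and both markers tested rose. These 2 were cysteine proteinase genes of xylem, while the sieve element markers were at or near 0 in every library, with 1 of 8 vascular markers at 0 in all nor-like1 libraries and 2 of 8 at 0 in all WT libraries. Seed storage transcripts summed to 1.46 to 7.98 CPM in nor-like1 and 5.1 to 8.48 CPM in WT over 12 genes. The largest part of this came from the vicilin-like gene Solyc06g075290.4, at 0.729, 4.38 and 1.66 CPM in nor-like1 and 7.5, 6.64 and 3.52 CPM in WT. It was not called, with a log2 fold change of -1.38 and an edgeR adjusted p of 0.154. Chlorophyll-binding protein transcripts summed to 1575 to 2241 CPM in nor-like1 and 2146 to 2439 CPM in WT, with 2 of 28 tested higher and 5 lower, which makes 25% called against 21.9% of all genes. Of the 5 exocarp markers, CER6 rose, GPAT6 and CYP86A69 fell, and CD1 and CD2 were not called. The 2 vascular markers tested were higher in nor-like1, as PL was, at log2 fold changes of 3.19 (Solyc02g076730.4) and 0.55 (Solyc04g080873.2). Within nor-like1 the vascular sum was lowest in replicate 1, where PL was highest. In WT the vascular sum and PL were both highest in replicate 3. The part of these markers in the PL result was not tested.

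The genes nearest to each of the 5 over the 6 libraries were sought among 13603 genes that averaged 5 CPM or more. Nearness was the root mean square distance between values of log2(CPM + 1), each gene centred on its own mean. This distance is not scaled for how much a gene varies, so genes that vary little lie near each other whatever their pattern. The nearest genes to PG2a were Solyc10g007600.3, listed as a glycolate oxidase, at 0.461, Solyc02g088270.3, of no described function, at 0.605, and LOXC at 0.645. PL was nearest to Solyc12g009770.2, an unknown protein, at 0.164, Solyc04g063350.3, listed as a subunit of 2-oxoisovalerate dehydrogenase, at 0.182, and the cyclin gene Solyc05g006050.3 at 0.204. EXP1 had no gene nearer than 0.622, the distance to the ethylene response factor gene Solyc08g078190.3, followed by the abscisic acid hydroxylase gene Solyc08g005610.3 and Solyc05g006390.1, both at 0.638. TBG4 was nearest to Solyc11g012890.2 at 0.0578, Solyc08g066750.3 at 0.0597 and Solyc02g022830.3 at 0.0646, and CEL2 to Solyc08g076530.3 at 0.136, Solyc02g068315.1 at 0.158 and Solyc12g099100.2 at 0.167. Among the 5 themselves, TBG4 and CEL2 were the nearest pair at 0.441, and PG2a and PL the farthest at 2.55. The median distance to the 13603 genes was 0.329 for TBG4 and 0.445 for CEL2, so the 0.441 between them is no sign of a shared pattern. That median was 1.86 for PG2a, 0.971 for PL and 1.21 for EXP1. These distances describe 6 libraries and carry no test.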

How the data were processed

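RNA-seq of tomato exocarp was analysed in 3 nor-like1 and 3 WT libraries. Per the file headers, the deposited table of each library gives expected counts and FPKM per gene. The submitters' processing notes list RSEM, Bowtie2, StringTie and HISAT2 with neither version nor role. The build, gene models and strand setting were not given in the sources used here. Genes absent from a library's table were taken as 0. A further deposited table, from DESeq2 per its header, holds the authors' log2 fold changes and p-values, quoted only beside the values computed here. Its group signal columns, deposited by the authors on an unstated scale, were not used. Expected counts of near-identical paralogs are uncertain; those of the 5 genes were whole numbers.

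After rounding, the counts were fitted by genotype in edgeR 4.0.16 (R 4.3.3), with TMM factors, its filterByExpr filter and the robust quasi-likelihood F test. A Benjamini-Hochberg adjusted p below 0.05, over all genes tested, made a call. The procedure was tested on simulated data with 200 changed genes. CPM were scaled by TMM factors. Every fold change has nor-like1 on top, and its SE and 95% interval were derived from the F statistic. Exact permutation tests used log2(CPM + 1). The floor is 3 counts per library, and floors and intervals cover counting error only. Replicates of a genotype differed beyond counting error (chi-square per gene between 10.8 and 49.4).

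Alternatives were DESeq2 1.42.0, upper-quartile factors, other filters, limma 3.58.1 on log2(FPKM + 1) or log2(FPKM + 0.1), thinned counts, a replicate block and leaving out each library. Leaving out replicate 1 of both genotypes was added after seeing the data. The 5 genes, the lists and the tests were chosen with earlier results of these data known. The genes named by rule were the 5, SlNOR-like1, the exocarp markers and 7 listed ripening regulators and ethylene genes. For each family and direction, the rule also took the called gene of smallest adjusted p averaging 5 CPM or more. For each of the 5, it took the 3 nearest genes. The remaining genes were chosen after their values were seen, and not all are marked so. No sequences or coordinates are given.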

Additional observations from a re-analysis of the deposited data

How the results depend on the processing

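Genotype alone was fitted for the values above. With one of the 6 libraries left out in turn, the number of genes called lay between 1139 and 4742, that of other wall enzyme genes between 22 and 54, and that of ripening genes between 1 and 3. The log2 fold change of PL lay between 1.41 and 2.20, of EXP1 between 0.48 and 2.79, of CEL2 between -0.01 and 0.76, of E4 between -0.14 and 0.81, of ACS4 between -0.36 and 0.39, and of NOR between -0.77 and 0.50. Without replicate 1 of both genotypes, chosen after seeing the data, 2177 genes and 4 ripening genes were called, PL had 1.37 (not called), EXP1 2.52 (called), CEL2 -0.03, ACS4 0.72 and NOR -0.60, and PG2a did not pass the filter. The replicate block gave PG2a -4.06 with an adjusted p of 0.013, E8 -2.53 with 0.00695, and 3 ripening genes called, and changed the call of none of the other 4 wall genes. The replicate numbers pair nothing in the labels, and same-numbered libraries deviated together with correlations of 0.27, -0.30 and 0.10 over 13603 genes, so this is no paired result. NOR was -0.12 with limma on log2(FPKM + 1), with or without the filter, -0.13 with limma on log2(FPKM + 0.1), and -0.11 with the replicate block. ACS4 was 0.01 with upper-quartile factors and 0.11 with thinned counts. The cause of these changes was not tested. PL was called under 10 of 16 alternatives, EXP1 under 2 of 16, PG2a under 1 of 15, and TBG4 and CEL2 under 0 of 16. Depth limits PG2a and CEL2 most, with 29 and 73 counts in all over the nor-like1 libraries.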

Other observations

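Another gene of the softening literature, the endo-mannanase MAN4 (Solyc01g008710.5.1), did not pass the filter on low counts, and was picked here after its values were seen. It had 233, 4 and 1 counts in nor-like1 replicates 1 to 3, against 1247, 10 and 14 counts in WT replicates 1 to 3. Replicate 1 was 54.6-fold above the next library in nor-like1 and 81.9-fold above it in WT, on the CPM scale. The xyloglucan endotransglucosylase gene XET2 (Solyc07g009380.5), also picked after its values were seen, was highest in replicate 1, at 3.23-fold in nor-like1 and 3.29-fold in WT.

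Of the 13603 genes averaging 5 CPM or more, 6 (0.0441%) stood at least 4-fold above both other libraries in replicate 1 of each genotype. They were E8, LOXC, AAT, Solyc02g088270.3, Solyc10g007600.3 and Solyc08g066690.4. Solyc10g007600.3, Solyc02g088270.3 and LOXC are also the 3 genes nearest to PG2a named above. Both lists were drawn from the same 6 libraries, and PG2a is itself highest in replicate 1 of each genotype. Their overlap thus largely follows from how they were made, and is no separate result.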
